A study of Mus musculus with 2 samples.

Results

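Transcripts of the proteasome, the cell's main protease for ubiquitin-tagged proteins, were compared between a fast and a slow pool of mouse skeletal muscle fibres. Members were all genes whose symbol starts with Psma, Psmb, Psmc, Psmd, Psme, Psmf or Psmg and whose RefSeq accession a probe carried, which gave 50 genes with 76 probes out of 23458 genes with a named probe. Of 57 such symbols in the RefSeq gene table, 7 had no matched probe: 6 pseudogenes and Psme2, a regulator subunit. Where several probes named a gene, the one with the highest mean intensity over both arrays was used.

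The study measured 2 one-colour Agilent arrays, 1 per pool. All fibres came from 8 male mice aged 6 to 8 weeks that were heterozygous for GFP-Myh7, a fluorescent tag on the slow myosin heavy chain, so fast and slow fibres shared this allele. The fast pool held 4447 fibres without GFP from the extensor digitorum longus, a fast muscle of the lower leg, and the slow pool held 1659 fibres with GFP from the soleus, a postural calf muscle. One label of the slow sample gives the extensor digitorum longus as its tissue, against its source label and the protocol, which name the soleus. Muscle and fibre type change together between the pools and cannot be told apart. Animals were pooled, so no value has a replicate, nothing was tested for significance, and precision is limited by having 1 array a pool.

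The proteasome has a barrel-shaped core particle of alpha and beta subunits, in which some beta subunits cut proteins, and a cap, the regulatory particle, which recognises ubiquitin, unfolds the protein and feeds it into the barrel. In cells that respond to interferon, inducible beta subunits take the place of the standard catalytic ones and form the immunoproteasome, which makes peptides suited to MHC class I. Other activators can replace the cap, and dedicated chaperones assemble core and cap but are not part of the finished particle. In muscle the proteasome carries out much of the breakdown of contractile proteins during atrophy.

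Levels below are log2 processed intensities relative to the 75th percentile of the array, which stands at 0, and every difference is the slow level minus the fast level. A gene counted as measured on an array if the scanner file flagged its probe there as well above background. Of the 50 members, 48 were measured on both arrays, Psma8 only in fast fibres, and Psmb11 was not well above background on either. The pools matched their labels: Myh7, the slow myosin heavy chain, stood at 2.58 in fast and 10.66 in slow fibres, and Myh4, the fastest type, at 9.78 and -1.76. Myh1 and Myh2, the other adult fast types, had differences of -6.84 and -1.84. The share of the 59305 spots flagged as well above background was 52.3% for fast and 50.9% for slow fibres. Repeated spots of 288 probes had a median SD of 0.05 for a difference, but no member was among the repeated probes. The software error of a difference, which the scanner files allow to be computed, had a median of 0.20 over the measured members. It covers reading of the spots, not animals, dissection or labelling.

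The proteasome itself was at nearly equal transcript levels in the 2 pools. Of the 7 assembly chaperones among the members, 4 passed 1.5-fold toward slow fibres, as did 21.1% of all genes measured on at least 1 array. The dim inducible catalytic subunits Psmb8 and Psmb9 passed it toward fast fibres, as did 24.3% of those genes. All 31 core and cap subunits measured on both arrays lay within 1.5-fold, with a median difference of 0.04 and an SD over genes of 0.23. Over all 12846 genes measured on both arrays the median was 0.05 and the SD 1.09. Past 2-fold were Psmd5 and Psmg4, both chaperones, in slow fibres, and Psmb8, Psmb9 and Psma8 in fast fibres. Psma8 was not well above background in slow fibres, so its fold uses the lowest signal so flagged there and is not a strict limit. Over the main setting and 8 other scalings or background corrections, called the 9 settings below, the core and cap median ran from -0.11 to 0.47, so the sign of small differences depends on the scaling. The chaperone count at 1.5-fold ran from 2 to 5 over these settings, and Psmb8 and Psmb9 each passed 1.5-fold in 7 of the 9.

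Upstream sequence is shown for the genes on which these contrasts turn, as RefSeq gives it for build GRCm38.p6. They are the chaperone genes Psmd5 and Psmg4, the activator gene Psme4, and the inducible subunit genes Psmb8 and Psmb9 beside their standard counterparts Psmb5 and Psmb6. Each line holds the 250 bases before the annotated start, 5′ to 3′ on the gene's own strand. Capitals mark matches, on either strand, to the motifs TGACNNNGC and TGAGNNNGC, forms of the antioxidant response element bound by the factors Nfe2l1 and Nfe2l2, and to CCAAT, the CCAAT box. A match is a stretch of letters and not a bound site.
Psmd5, chr2:34870963-34871212, minus strand: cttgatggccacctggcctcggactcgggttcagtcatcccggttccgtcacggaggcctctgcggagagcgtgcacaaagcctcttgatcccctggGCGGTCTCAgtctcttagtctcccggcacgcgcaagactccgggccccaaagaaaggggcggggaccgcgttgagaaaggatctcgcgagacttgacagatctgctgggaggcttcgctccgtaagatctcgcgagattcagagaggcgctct
Psmg4, chr13:34162714-34162963, plus strand: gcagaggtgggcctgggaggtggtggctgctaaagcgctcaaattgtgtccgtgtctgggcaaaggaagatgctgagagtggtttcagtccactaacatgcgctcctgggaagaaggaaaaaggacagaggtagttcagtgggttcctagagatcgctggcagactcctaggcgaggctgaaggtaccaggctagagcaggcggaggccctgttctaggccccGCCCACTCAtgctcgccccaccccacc
Psme4, chr11:30771525-30771774, plus strand: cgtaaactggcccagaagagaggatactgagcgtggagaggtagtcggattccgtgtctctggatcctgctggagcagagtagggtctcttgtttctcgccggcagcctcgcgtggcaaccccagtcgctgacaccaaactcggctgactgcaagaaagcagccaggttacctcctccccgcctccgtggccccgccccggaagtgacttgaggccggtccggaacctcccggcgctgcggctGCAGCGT
Psmb8, chr17:34197945-34198194, plus strand: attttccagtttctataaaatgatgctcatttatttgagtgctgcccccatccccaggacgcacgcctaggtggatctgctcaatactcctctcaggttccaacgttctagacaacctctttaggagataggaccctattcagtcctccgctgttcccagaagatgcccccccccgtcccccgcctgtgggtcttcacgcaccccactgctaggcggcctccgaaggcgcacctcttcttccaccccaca
Psmb5, chr14:54617996-54618245, minus strand: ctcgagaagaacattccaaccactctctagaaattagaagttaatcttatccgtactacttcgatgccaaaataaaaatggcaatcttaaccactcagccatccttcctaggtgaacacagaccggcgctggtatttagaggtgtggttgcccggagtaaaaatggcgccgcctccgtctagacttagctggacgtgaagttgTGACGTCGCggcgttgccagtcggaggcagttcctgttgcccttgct
Psmb9, chr17:34187331-34187580, minus strand: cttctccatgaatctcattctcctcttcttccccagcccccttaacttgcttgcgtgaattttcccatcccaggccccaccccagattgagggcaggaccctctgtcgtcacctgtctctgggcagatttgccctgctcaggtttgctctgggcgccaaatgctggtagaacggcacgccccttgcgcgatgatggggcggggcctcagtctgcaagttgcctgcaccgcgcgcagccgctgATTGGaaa
Psmb6, chr11:70525107-70525356, plus strand: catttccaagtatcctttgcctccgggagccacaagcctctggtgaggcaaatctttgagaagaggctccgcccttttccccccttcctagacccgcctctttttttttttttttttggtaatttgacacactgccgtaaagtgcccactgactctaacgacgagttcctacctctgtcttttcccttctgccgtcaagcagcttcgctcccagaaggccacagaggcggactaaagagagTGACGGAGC

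In those lines Psmd5 and Psmg4 each hold 1 TGAGNNNGC match on the opposite strand, at positions -153 to -145 and -27 to -19 from the start. Psmb5 and Psmb6 each hold a TGACNNNGC match on their own strand, at -47 to -39 and at -9 to -1. In Psme4 a TGACNNNGC match on the opposite strand begins at position -7 and ends at position 2, past the printed stretch. Psmb8 holds none of the motifs searched, and Psmb9 holds a CCAAT box at -8 to -4 on the opposite strand. The Psmb9 window also overlaps that of Tap1, a peptide transporter gene read from the other strand, by 275 of 300 bases, and the starts of the pair lie 226 bases apart.

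The alpha ring, which gates the barrel, differed little between pools. Its 7 ubiquitous subunits had a median difference of 0.19, and 5 of the 7 lay above 0. The highest was Psma5, at 5.24 in fast and 5.60 in slow fibres, a difference of 0.36 or 1.28-fold. Psma1 followed at 5.10 and 5.45. The lowest was Psma3, at 7.0 in fast and 6.72 in slow fibres, and its second probe gave -0.23 against -0.28. Psma2, Psma4, Psma6 and Psma7 lay between -0.11 and 0.21. The 4 probes of Psma4 agreed closely, at differences of 0.17 to 0.20.

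Psma8, the alpha subunit of the germ line, was dim. Its brighter probe was well above background in the fast pool only, at -3.66 against -5.76, with processed intensities of 14.5 and 3.63. With the lowest signal well above background on the slow array in place of its own, Psma8 was 2.14-fold higher in fast fibres. This bound is not a strict limit, and the software error of the difference without it, -2.10, was 0.97. On neither array did its second probe pass the background flag, and under the normexp background correction the bound shrank to a log2 value of -0.15.

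The standard beta ring was equally close, with a median of 0.07 and 4 of 7 subunits above 0. Its 3 catalytic subunits all had small differences below 0, which lay above 0 under spike-in scaling. Psmb5, the chymotrypsin-like subunit, stood at 5.5 in fast and 5.25 in slow fibres. Psmb6, the caspase-like subunit, stood at 7.44 and 7.25, with a second probe at -0.17. Psmb7, the trypsin-like subunit, stood at 5.62 and 5.46. These differences, -0.25, -0.19 and -0.16, are each about the size of the software error.

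The non-catalytic beta subunits lay on the other side of 0 under the main setting. Psmb1 had the largest difference among the 31 core and cap subunits measured on both arrays, 0.50 or 1.41-fold, at 4.67 in fast and 5.16 in slow fibres. Psmb2, Psmb3 and Psmb4 were at 0.07, 0.13 and 0.15, and the second Psmb4 probe gave 0.34. These 3 differences were smaller than the software error of 0.20. Over the 9 settings they fell as low as -0.03, -0.04 and -0.03, so their side of 0 is not settled. Psmb1 has 1 probe, so no second reading of this difference exists on the arrays.

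**Figure D1:**
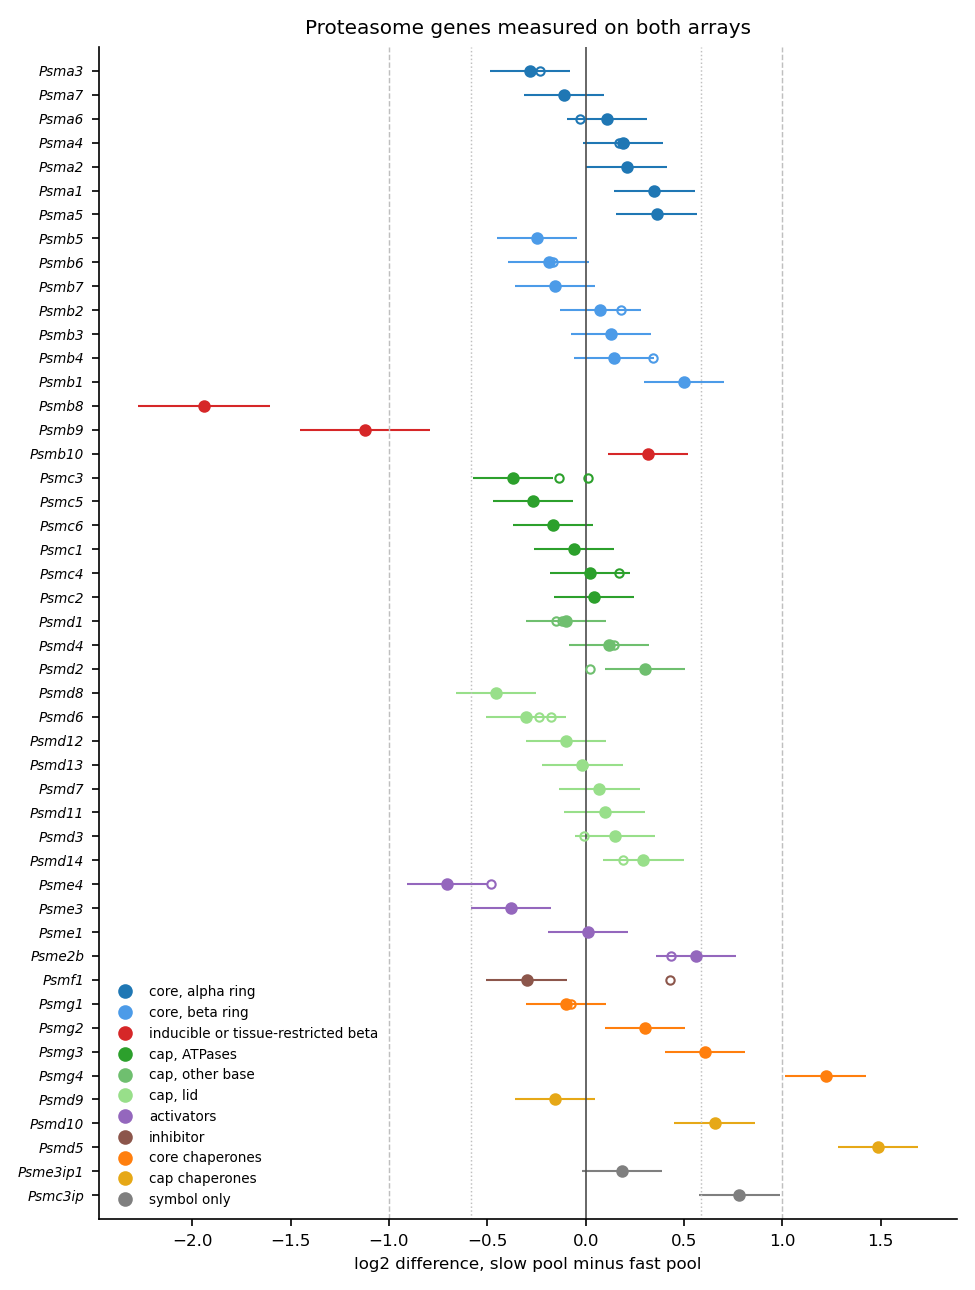
Log2 difference, slow pool minus fast pool, of the 48 members measured on both arrays, coloured by particle. Filled points are the chosen probes, bars 1 software error, open points other probes of the same gene, dashed lines 2-fold and dotted lines 1.5-fold. Core and cap subunits cluster around 0 between -0.45 and 0.50, whereas Psmd5 and Psmg4 lie to the right of 2-fold and Psmb8 and Psmb9 to the left.

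Among the inducible beta subunits, Psmb8 and Psmb9 passed 2-fold toward fast fibres and Psmb10 did not. Psmb8, which replaces Psmb5, stood at -2.29 in fast and -4.23 in slow fibres, with intensities of 37.3 and 10.4, and was 3.84-fold higher in fast fibres. Psmb9, which replaces Psmb6, stood at -3.0 and -4.13, with intensities of 22.8 and 11.2, and was 2.18-fold higher there. Psmb10, which replaces Psmb7, went the other way, at 3.14 in fast and 3.46 in slow fibres. Psmb8 and Psmb9 were far below the 75th percentile on both arrays, and their software errors, 0.34 and 0.33, were the largest among members measured on both arrays. Psmb11, the thymus-specific subunit, had intensities of 1.63 and 1.99, not well above background.

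Set against the counterpart for the same catalytic site, which removes any scaling of a whole array, the difference was -1.69 for Psmb8 minus Psmb5, -0.93 for Psmb9 minus Psmb6 and 0.47 for Psmb10 minus Psmb7. Over the 9 settings these ran from -1.69 to -0.18, from -0.93 to 0.05 and from 0.40 to 0.60. The values nearest to 0 for Psmb8 and Psmb9 came from normexp, which adds an offset of 50 to the background-corrected median intensity of every spot. The processed intensities of both genes, a different measure, were below 50 on both arrays. Their directions held under all 9 settings, with Psmb8 between -2.05 and -0.52 and Psmb9 between -1.23 and -0.25, but under both normexp settings neither passed 1.5-fold.

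Genes that share pathway or regulation with the immunoproteasome were examined from a list of 13 antigen presentation and interferon response genes. Of these, 5 passed 2-fold toward fast fibres and 1 toward slow fibres, where 15.1% and 10.7% of all genes measured on at least 1 array did. The median over the 12 measured on both arrays was -0.39. Lowest were Irf8, an interferon-regulated transcription factor, at 1.61 in fast and -1.74 in slow fibres, and H2-D1, an MHC class I heavy chain, at 3.06 and 0.41. The MHC class I genes are near-identical copies and their probes may share targets. Tap1, named here because its promoter window overlaps that of Psmb9, passed the background flag only in the fast pool. It stood at -3.13 there and -4.65 in the slow pool, a 2.87-fold difference with a software error of 0.43. The slow signal was not well above background, so 2.87-fold is not a lower limit. Over the 9 settings the Tap1 value ran from -1.63 to -0.29 on the log2 scale, so it did not stay past 1.5-fold.

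Markers of several other cell types, but not of all, were higher in the fast pool, as were Psmb8 and Psmb9. Every one of 10 endothelial markers was past 1.5-fold toward the fast pool, with a summed scaled level of 24.1 against 5.81 in the slow pool. Of 10 fibroblast markers, 9 were, with sums of 156 and 38.6. Of all genes measured on at least 1 array, 24.3% were past 1.5-fold toward the fast pool and 21.1% toward the slow pool. Of 12 immune markers, 4 were at least 1.5-fold higher in the fast pool, 1 in the slow pool, and 5, among them Ptprc, the common leukocyte antigen, passed the background flag on neither array. Among those 4, Csf1r was at -0.92 by its chosen probe and at 0.42 by its other probe. The immune sums were 30.2 and 20.6. Of the other lists, all 5 erythrocyte, 5 of 7 smooth muscle and pericyte, 4 of 6 Schwann cell, 2 of 4 adipocyte and 2 of 5 satellite cell markers were at least 1.5-fold higher in the fast pool, and 1 smooth muscle and pericyte and 1 satellite cell marker in the slow pool. The summed level in the fast and slow pools was 93.0 and 34.7 for erythrocyte, 776 and 704 for smooth muscle and pericyte, and 4.67 and 1.53 for Schwann cell markers. It was 18.2 and 7.92 for adipocyte markers, and 5.45 and 5.83 for satellite cell markers. Each sum mostly follows its brightest genes. Cdh15 (2.18 in fast and 2.45 in slow fibres) was the brightest satellite cell marker. Acta2 (9.58 and 9.45) was the brightest smooth muscle and pericyte marker, and Itgam (3.79 and 4.01) the brightest immune marker. The satellite cell sum was thus slightly lower in the fast pool, although 2 of its 5 markers were at least 1.5-fold higher there and 1 in the slow pool. The part of these other cell types in the Psmb8 and Psmb9 differences was not tested. In pooled fibres, fewer cells of a type and less RNA per cell cannot be told apart.

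**Figure D2:**
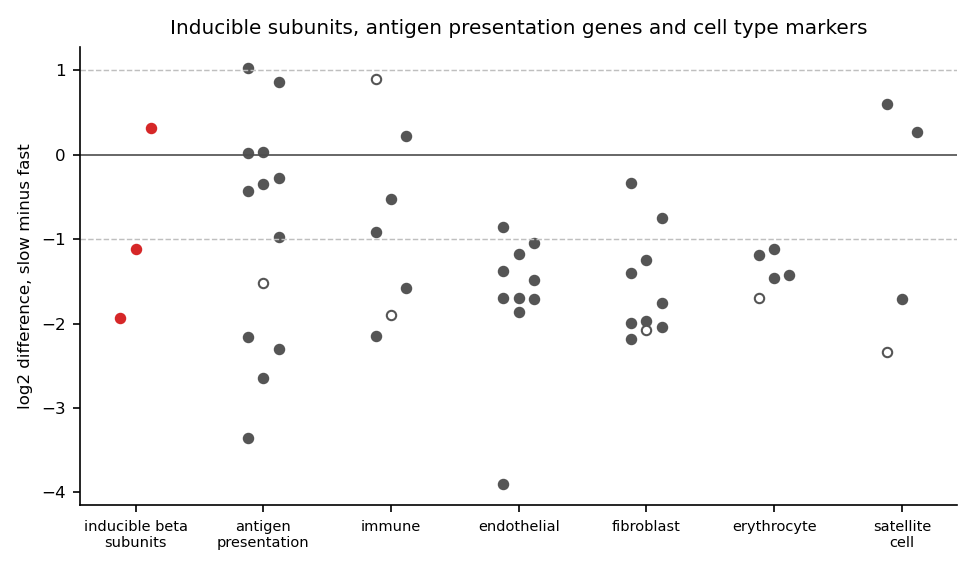
Log2 difference, slow minus fast, of the inducible beta subunits (red) and of genes in 6 other lists (grey); filled points were measured on both arrays and open points are bounds of genes measured on 1 array, with dashed lines at 2-fold. Psmb8 and Psmb9 lie at -1.94 and -1.12, within the spans of the antigen presentation, immune, endothelial, fibroblast and satellite cell lists, and Psmb10 lies above 0.

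The cap's ATPases, which form the ring that unfolds proteins, had the lowest median of the cap parts, -0.11, with 2 of 6 above 0; under spike-in scaling the median was 0.31. Psmc3 was lowest, at 7.85 in fast and 7.48 in slow fibres, but its other probes gave -0.14 and 0.01 against -0.37. Psmc5 stood at 4.68 and 4.42. Psmc1, Psmc4 and Psmc6 lay between -0.17 and 0.02, and Psmc2 was highest, at 5.96 and 6.00. The whole ring lay between -0.37 and 0.04.

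The other base subunits are scaffolds and receptors for ubiquitin and its carriers. Psmd2 was highest, at 5.07 in fast and 5.37 in slow fibres, with a second probe at 0.02 against 0.30. Psmd4, a ubiquitin receptor, stood at 6.65 and 6.76, and both its probes gave 0.12 to 0.15. Psmd1 was lowest, at 5.59 and 5.49, and its 3 probes gave -0.15 to -0.10.

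The lid, which surrounds the enzyme that removes ubiquitin, had a median of 0.03, with 4 of 8 subunits above 0. Psmd14, that deubiquitinating enzyme, was highest, at 4.41 in fast and 4.70 in slow fibres. Psmd8 was lowest, at 5.02 and 4.56, a difference of -0.45 or 1.37-fold in favour of fast fibres. Psmd6 was next, at -0.30, and its other probes gave -0.24 and -0.18. Psmd3, Psmd7, Psmd11, Psmd12 and Psmd13 lay between -0.10 and 0.15.

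Activators of the core went both ways. Psme4, the large single-chain activator PA200, stood at 6.02 in fast and 5.31 in slow fibres and was 1.63-fold higher in fast fibres, and its second probe gave -0.48. Psme3, the nuclear activator PA28 gamma, stood at 3.15 and 2.77. Psme1, the PA28 alpha subunit, was level, at 3.54 and 3.56. Psme2b stood at 4.36 in fast and 4.92 in slow fibres, with a second probe at 0.44 against 0.56. It is a retrogene copy of Psme2, the PA28 beta subunit, so its probes may also read Psme2 transcripts and its value is uncertain.

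Psmf1, the core-binding protein PI31, gave no consistent reading. Its brighter probe stood at 1.04 in fast and 0.74 in slow fibres, and its other probe gave 0.43 against -0.30. This was the widest disagreement among the 20 members with several measured probes, whose differences spanned a median of 0.11 and, without Psmf1, at most 0.38. In 4 of the 20 the probes fell on both sides of 0: Psmf1, Psmc3, Psma6 and Psmd3.

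The assembly chaperones held the largest slow-fibre differences. Of 7, 5 lay above 0, and the median was 0.61, or 0.50 to 1.03 over the 9 settings. In slow fibres 4 were higher by at least 1.5-fold, of which 2 by at least 2-fold, where 21.1% of all genes measured on at least 1 array passed 1.5-fold. The 1.5-fold count was 2 under loess, the authors' table and normexp with quantile normalization, without Psmg3 and Psmd10. None was 1.5-fold higher in fast fibres. Among the 41 remaining members measured on both arrays, only Psmc3ip was 1.5-fold higher in slow fibres.

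Psmd5, a chaperone of the ATPase ring, had the largest difference of all members in slow fibres. It stood at 0.83 in fast and 2.31 in slow fibres, with intensities of 324 and 973, and was 2.80-fold higher in slow fibres. The difference stayed between 1.33 and 1.91 over the 9 settings, past 2-fold in each. Psmd10, known as gankyrin and another chaperone of that ring, stood at 1.80 and 2.45, 1.57-fold higher in slow fibres, and was past 1.5-fold in 6 of the 9 settings. Psmd9, the third of this class, did not share the direction, at 1.27 and 1.11. Each of these genes has a single probe.

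Psmg4, which pairs with Psmg3 in building the alpha ring, stood at -0.21 in fast and 1.01 in slow fibres, with intensities of 158 and 394, and was 2.33-fold higher in slow fibres. It was past 2-fold in 7 of the 9 settings, and lowest, at 0.98, under normexp. Psmg3 stood at 1.62 and 2.22, 1.52-fold higher in slow fibres, just inside the 1.5-fold rule that Psme2b just missed, and was past it in 4 of the 9 settings. Of the other pair, Psmg2 stood at 2.92 and 3.22 and Psmg1 at 3.86 and 3.76. Neither gene of that pair was past 1.5-fold. Psmg2, Psmg3 and Psmg4 have 1 probe each, and both Psmg1 probes lay between -0.10 and -0.08.

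**Figure D3:**
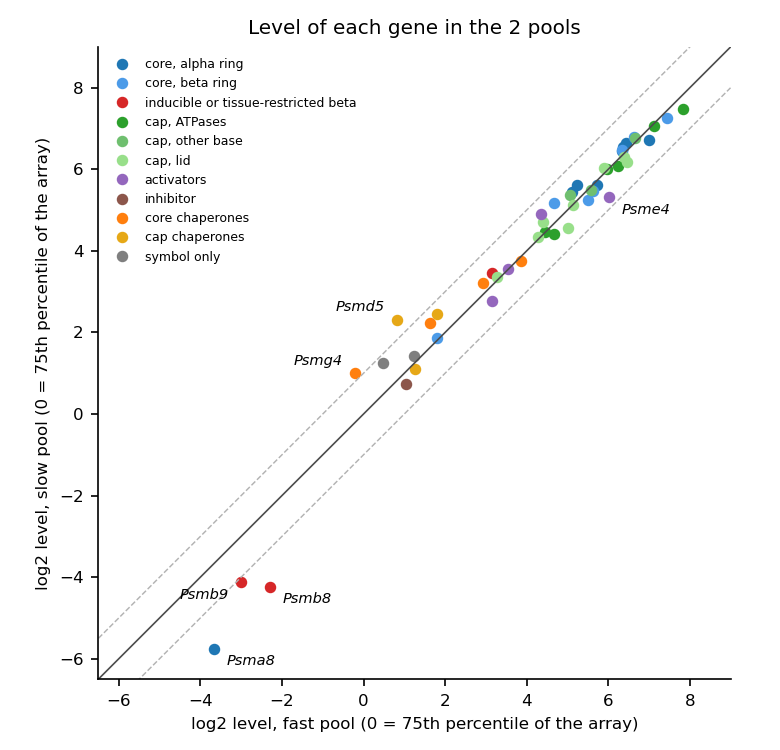
Log2 level of each member in the fast pool (x axis) and the slow pool (y axis), relative to the 75th percentile of the array, for the 49 members well above background on at least 1 array; the solid line is equality and dashed lines are 2-fold. Psmd5 and Psmg4 lie above the upper dashed line, and Psmb8, Psmb9 and Psma8, the dimmest members shown, below the lower one.

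The symbol rule also took in genes that are not proteasome subunits. Psmc3ip, a partner of the recombinases in meiosis named for its binding to Psmc3, stood at 0.48 in fast and 1.26 in slow fibres, 1.72-fold higher in slow fibres, with both probes at 0.78. Psme3ip1, which binds Psme3, stood at 1.24 and 1.43.

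Counts of members past a fold are to be read against all genes. At least 2-fold higher in slow fibres were 2 of the 49 members measured on at least 1 array (4.08%), against 10.7% of 14645 such genes, and in fast fibres 3 (6.12%), against 15.1%. At 1.5-fold the counts were 5 (10.2%) in slow fibres against 21.1%, and 4 (8.16%) in fast fibres against 24.3%. Among the 12424 genes at least as bright as the dimmest member measured on both arrays, 9.51% and 13.1% were past 2-fold in slow and fast fibres, and 20.1% and 21.1% past 1.5-fold. Among the 4851 genes at least as bright as the dimmest core or cap subunit, 31.9% were past 1.5-fold in either direction, against 0 of the 31 core and cap subunits measured on both arrays. Of those 31, 19 lay within 1 software error of 0 and 29 within 2, and of the 17 other measured members 4 and 8.

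**Figure D4:**
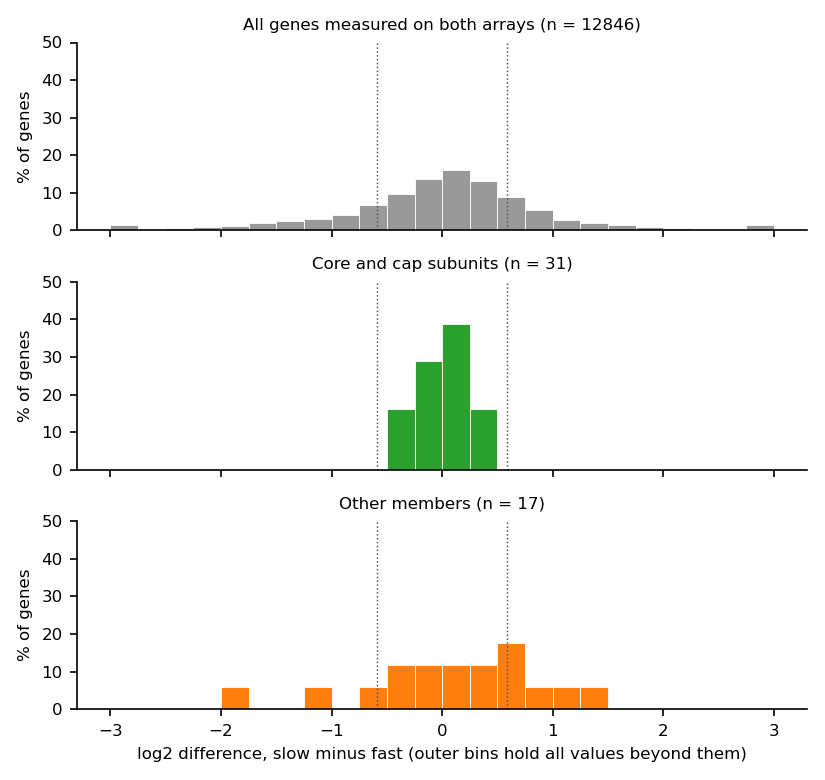
Distribution of log2 differences, slow minus fast, as a percentage of genes in bins of equal width, for all genes measured on both arrays (12846), core and cap subunits (31) and the other members (17); dotted lines mark 1.5-fold. The core and cap subunits fall wholly between the lines, and the other members reach from -1.94 to 1.48.

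Medians of other large complexes ran from -0.04 to 0.32. Over all genes measured on both arrays the median was 0.05, and 59.0% lay within 1.5-fold. The COP9 signalosome and eIF3 share an architecture with the lid, and CCT is the cytosolic folding chamber. CCT had a median of 0.32, with all 8 genes within 1.5-fold, from Cct5 at -0.08 to Cct4 at 0.54. For eIF3 the median was 0.21, with 11 of 13 within 1.5-fold, from Eif3j1 at -0.47 to Eif3d at 0.66. The COP9 signalosome had a median of -0.04, with 7 of 9 within 1.5-fold. Its exception past 2-fold was Cops8, at -3.09 by the brightest probe and -0.26 by its other probe. No difference between these complexes and the proteasome was tested.

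Proteasome genes whose symbols fall outside the rule were more spread than the core and cap, with an SD of 0.62 and 6 of 9 (66.7%) within 1.5-fold, a difference that was not tested. Over all genes measured on both arrays the SD was 1.09, and 59.0% lay within 1.5-fold, so that share is near the one over all genes. Of 9 with a probe, 1 passed 2-fold toward fast fibres and none toward slow fibres, and the median was 0.15. Ecpas, the adaptor protein ECM29 of assembled proteasomes, stood at 1.97 in fast and 0.86 in slow fibres, 2.17-fold higher in fast fibres, with a second probe at -0.78. At 1.5-fold, Uchl5, a cap-bound deubiquitinase, was higher in fast fibres (-0.79) and Akirin2, which brings proteasomes into the nucleus, in slow fibres (0.84). Pomp, the chaperone that completes the core, was at 0.33, with a second probe at 0.17. Usp14, another deubiquitinase, was at 0.31, with its other probes at 0.04 and 0.05. Adrm1, a ubiquitin receptor, was at -0.22, with a second probe at -0.03, and Sem1, a small lid subunit, was at 0.07.

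By the chosen probes, regulators of proteasome genes and carriers of its substrates were within 2-fold, as were 77.8% of all genes measured on both arrays. Of 7 regulators, whose median was -0.30, the farthest from 0 were Nfe2l1, the factor that induces proteasome genes when activity falls, at 0.45, and Ddi2, the protease that activates it, at -0.66. Nfe2l1 stood at 5.58 in fast and 6.03 in slow fibres, with a second probe at 0.12. Nfe2l2, its relative, was at -0.33. Of 7 ubiquitin shuttles and zinc finger partners, Zfand5 was lowest, at -0.67, with its other 3 probes between -1.28 and 0.42, and Ubqln1 highest, at 0.49. Ubqln4 was at 0.40 by its chosen probe and at 1.01, past 2-fold, by its other probe. All 6 ubiquitin and activating enzyme genes were above 0, with a median of 0.20, and the lowest was Ubb, at 0.11.

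Promoter windows of 300 bases, from 250 before to 50 after the start, were at hand for 42 members (45 windows), including 25 core and cap genes (27 windows). TGACNNNGC or TGAGNNNGC was present on either strand in 13 of the 27 core and cap windows (48.1%), against 27.8% of all 32851 windows in the RefSeq table, and in 5 of 18 windows of the other members (27.8%). The 12 core and cap genes with such a match had a median difference of -0.06 and the 13 without it 0.10. The CCAAT box was in 35.6% of member windows and 37.4% of all windows. An interferon response motif, 2 copies of GAAA separated by any 2 bases, was in 5 member windows, those of Psmb3, Psmd4, Psmd9, Psme1 and Psmg4 (11.1%, against 3.44% of all windows), and not in those of Psmb8, Psmb9 or Psmb10. Shares were not tested, and windows of this length hold matches by base composition alone.

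Scaling to spike-in controls, known amounts of foreign RNA added to each sample, raised every difference by 0.42, so that the core and cap median became 0.47 and 7 of the 31 subunits were past 1.5-fold in slow fibres. The median of all genes rose by the same amount, from 0.05 to 0.47, and so equalled that of the core and cap. The SD over core and cap subunits was 0.23 to 0.25 over the 9 settings, against 0.84 to 1.09 over all genes.

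**Figure D5:**
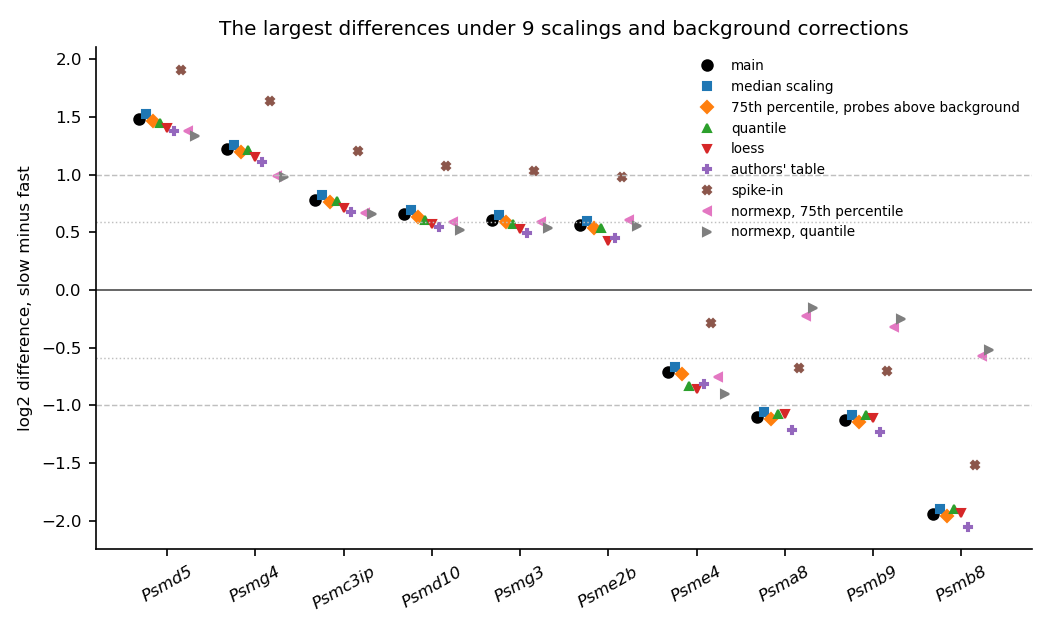
Log2 difference, slow minus fast, of 10 members with large differences under the main setting and 8 other scalings or background corrections, with dashed lines at 2-fold and dotted lines at 1.5-fold; Psma8 is shown as its bound. Psmd5 stays between 1.33 and 1.91, while Psma8, Psmb9 and Psmb8, the dim genes, move to between -0.57 and -0.15 under normexp.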

How the data were processed

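Total RNA of 1 pool of fast and 1 pool of slow fibres was labelled with Cy3 from 0.1 µg, per the labels' protocols, and hybridised to 1 array each. The submitters' processing notes name Feature Extraction 12.0.3.1, Agilent's image software, for reading the arrays. The deposited scanner files hold spot intensities on a linear scale, background-subtracted and detrended within each array and not normalized between arrays, with a software error and 0 or 1 flags. The authors' deposited value table equals the processed intensity times 2.83 (fast) and 2.45 (slow), without a log or centring, and its columns have medians of 30.1 and 27.1. What those factors scale to is unknown. Control spots and 159 outlier spots were left out, and repeated spots averaged. No spot was saturated. Of 56596 probes, 33763 matched a gene of the RefSeq table of GRCm38.p6 by unversioned accession, used for names because the array design refers to another build. Values were log2 intensities minus each array's 75th percentile. With 1 array per group no test was run. Size rules of 2-fold and 1.5-fold took its place. A gene measured on 1 array only was given a bound. For the other array this took the higher of its own signal and the lowest signal flagged there as well above background. Such a bound is not a strict limit. Named were all members, with levels for those past 1.5-fold, the highest and lowest of each particle, inducible and activator genes and genes measured on 1 array, and for each other list its extremes. Members, lists, motifs and alternatives were chosen with earlier results of these data known. Alternatives changed the scaling, background correction, values, probe rule and filter, with limma 3.58.1 for quantile, loess and normexp, the last run on median spot and background intensities. The steps were tested on simulated data. Values of some single genes of the other lists are not reported here.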

Additional observations from a re-analysis of the deposited data

How the results depend on the processing

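Of 12 alternatives, spike-in scaling raised every difference: 5 members were then past 2-fold in slow and 1 in fast fibres, 16 past 1.5-fold in slow fibres, and the medians were 0.48 for all members, 0.61 for the alpha ring, 0.50 for the standard beta ring, -0.70 for the inducible subunits, 0.31, 0.54 and 0.45 for ATPases, other base and lid, 0.24 for activators, and 0.88 and 1.08 for core and cap chaperones. The cap ATPase and activator medians were thereby above 0. Under both normexp settings 1 member was past 2-fold in slow and 0 in fast fibres, and 1 past 1.5-fold in fast fibres, and the inducible median was -0.32 with the 75th percentile and -0.25 with quantile normalization. Under loess, normexp with quantile normalization and the authors' table, 3 members were past 1.5-fold in slow fibres. With no filter on dim probes the inducible median was -0.47, because Psmb11 then entered it. Of single members, none past 1.5-fold changed direction. Outside spike-in scaling 9 values moved by more than their software error, among them Psmf1, at 0.06 by the median over its probes, and Psmc3, at -0.14. Dim signal limits Psma8, Psmb8 and Psmb9. No paired analysis was possible because each group has 1 sample.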
